A study of Phaseolus vulgaris with 18 samples.

Results

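The pods of common bean (Phaseolus vulgaris) line A18-1, the golden line, start green and turn gold, and those of line Renaya, the green line, stay green. Here the golden line at 14 days after flowering (DAF) was set against the green line at 18 DAF, so that the green pods were 4 days older. This takes 6 of the 18 libraries of the series, 3 on each side. The remaining 12, from the golden line at 10 and 18 DAF and the green line at 10 and 14 DAF with 3 libraries each, entered the same fit and gave the comparisons set beside this one. Plants came from a climate chamber, neither line is labelled with a treatment, and the replicates are described as independent biological repeats. The series text names pod walls as the tissue, while a label field gives leaf and the extraction text an adipose type, which was not resolved. Line and pod age differ together between these groups, so the change in the green line alone over the same 4 days (18 against 14 DAF) is given beside the main results.

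As background, green pods photosynthesise much as leaves do. Antenna proteins bind chlorophyll and pass light energy to photosystems I and II, an electron chain turns it into chemical energy, and the Calvin cycle uses that energy to fix carbon dioxide. Chlorophyll is built from glutamate through porphyrins and is dismantled enzyme by enzyme when a pod loses its green, and carotenoids, the yellow and orange pigments of the same membranes, then become visible. A young pod first adds cells, then enlarges them, and later lays down thicker walls.

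The golden 14 DAF libraries held 55687711 to 74377200 counts each and the green 18 DAF libraries 50702367 to 63624200, and the lowest library of the series held 48757139. Pearson correlations across genes between replicates were 0.941 to 0.965 in the golden 14 DAF group and 0.941 to 0.946 in the green 18 DAF group. Green 18 DAF replicate 3 stood apart from replicates 1 and 2 in several gene groups, with the lowest photosynthesis transcripts and the highest heat shock transcripts of the 6 libraries. Each gene group below is therefore also counted without it. HSP101 (Phvul.004G044100), a chaperone that dissolves protein aggregates after heat, had 1.59, 2.67 and 1.36 FPKM in golden 14 DAF pods, against 6.69, 2.45 and 81.7 FPKM in green 18 DAF pods. The groups overlapped in green replicate 2. The gene was called lower (log2 fold change -4.11, SE 1.04, adjusted p = 0.012), and was not called without that library (log2 fold change -1.35 without green 18 DAF replicate 3, adjusted p = 0.18). The 3 seed storage protein genes of the table summed to at most 2.205 FPKM in any of the 6 libraries, with 1 of them at 0 in all. The 4 oleosin genes, which coat seed oil bodies, summed to 4.42, 8.01 and 10.5 FPKM in golden 14 DAF and 12, 21.4 and 8.03 FPKM in green 18 DAF pods, with overlapping groups and 0 called. The 28 late embryogenesis and dehydrin genes, also active outside seeds, summed to 1219, 1152 and 906 FPKM in golden 14 DAF and 593, 780.3 and 794 FPKM in green 18 DAF pods. These sums did not overlap, every golden one being higher, and 5 of the genes were called, 3 higher and 2 lower. The 26 pod development genes, factors of carpel tissue such as AGAMOUS-like 8, summed to 1304, 1103 and 988 FPKM in golden 14 DAF pods. In green 18 DAF pods they summed to 1038, 820 and 999 FPKM. No reference leaf library was compared, so these sums were not used to tell leaf from pod wall.

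Across all genes, 5557 of 22805 tested were called in golden 14 DAF against green 18 DAF pods, which is 24.4%, with 2711 higher (11.9%) and 2846 lower (12.5%) (edgeR's quasi-likelihood test, Benjamini-Hochberg adjusted p under 0.05). Of these, 3147 (13.8% of those tested) differed by at least 2-fold, 1798 higher (7.88%) and 1349 lower (5.92%). The groups did not overlap in FPKM for 8699 genes, which is 38.1%, with 21.4% higher and 16.8% lower. Levels are the deposited FPKM (fragments per kilobase of transcript and per sequencing depth), given in replicate order, and fold changes are log2 of golden 14 DAF over green 18 DAF. The count depended on single libraries, at 3656 without golden 14 DAF replicate 1, 3139 without golden 14 DAF replicate 2 and 3048 without green 18 DAF replicate 3. At equal age 9474 genes (41.5%) were called at 14 DAF and 3416 (15%) at 18 DAF, in comparisons that share libraries with this one. The 4 days from 14 to 18 DAF changed 1586 genes (6.95%) in the green line, 900 higher and 686 lower, a count of 474 to 1522 when a library was left out. It was 474 without green 14 DAF replicate 1, 503 without green 14 DAF replicate 3 and 524 without green 18 DAF replicate 1.

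**Figure D1:**
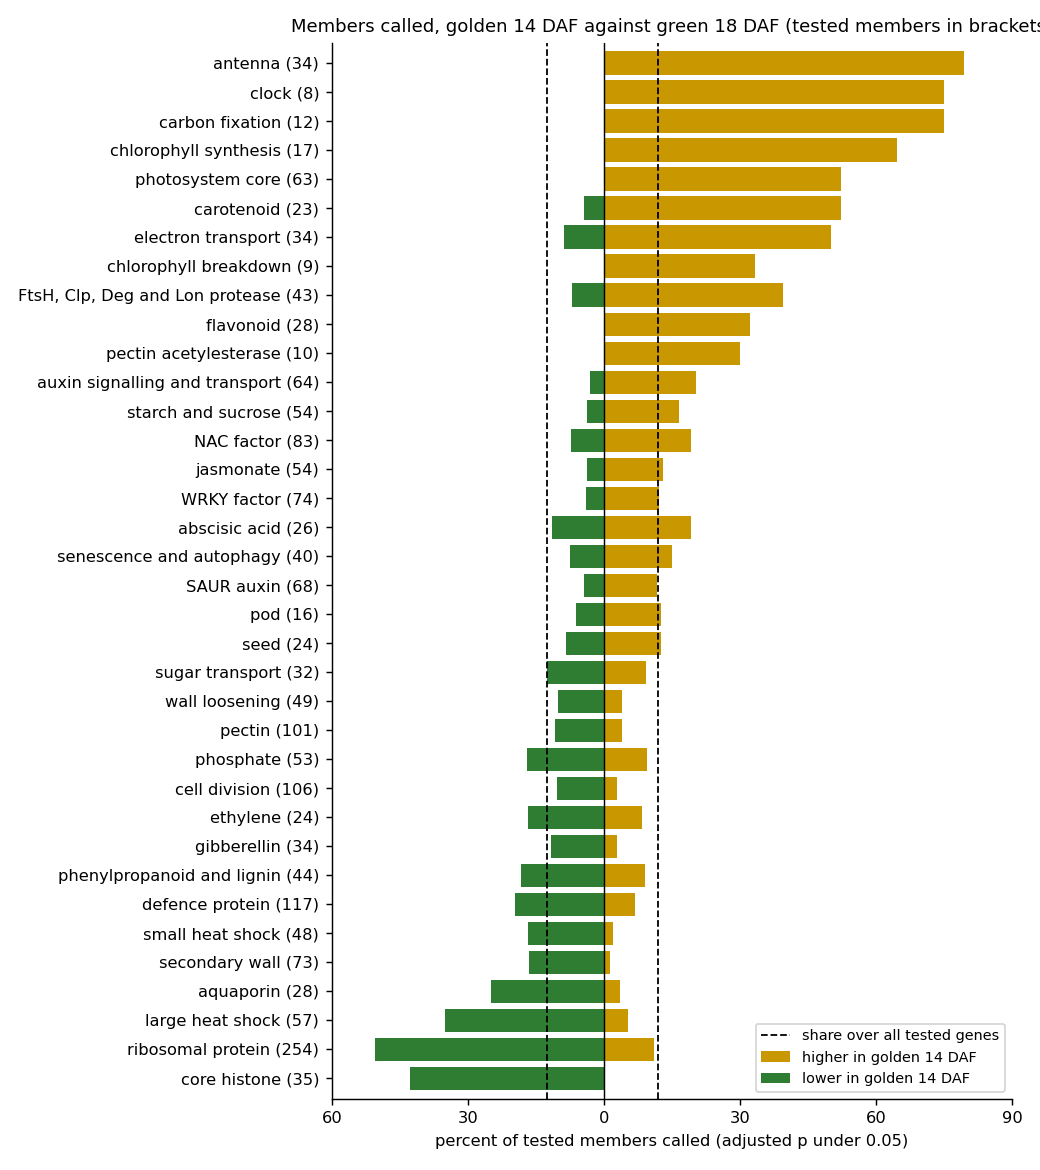
Share of each gene group's tested members called higher (right of 0) or lower (left of 0) in golden 14 DAF against green 18 DAF pods, in percent, with dashed lines at the shares over all tested genes (11.9% higher, 12.5% lower). The photosynthesis groups lie to the right, with 27 of 34 antenna and 9 of 12 carbon fixation genes higher and 0 lower, and core histones and ribosomal proteins lie to the left.

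Genes of the light reactions stayed higher in the golden pods although the green pods were 4 days older. Of 34 antenna genes, 27 were higher and 0 lower, and of 63 photosystem core genes 33 were higher and 0 lower, where 11.9% of all genes were higher. The median log2 fold change was 1.57 for antenna genes and 1.07 for core genes, against -0.03 over all tested genes. All 34 antenna genes had a positive fold change, from 0.35 to 5.30 on the log2 scale. Antenna transcripts summed to 22439, 28817 and 27384 FPKM in golden 14 DAF pods, against 13930.2, 13019.9 and 6553 FPKM in green 18 DAF pods. Core transcripts summed to 20304, 23155 and 22938 FPKM in golden 14 DAF pods, against 12783, 11984 and 7098 FPKM in green 18 DAF pods. In both sums every golden library lay above every green library, and green replicate 3 was the lowest. With only the 6 compared libraries in the fit 11 antenna, 24 core and 3 Calvin cycle genes were higher. Without green 18 DAF replicate 3, 13 antenna and 18 core genes were higher and 0 lower (medians 1.27 and 0.85), and 15 antenna genes were higher without golden 14 DAF replicate 2.

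**Figure D2:**
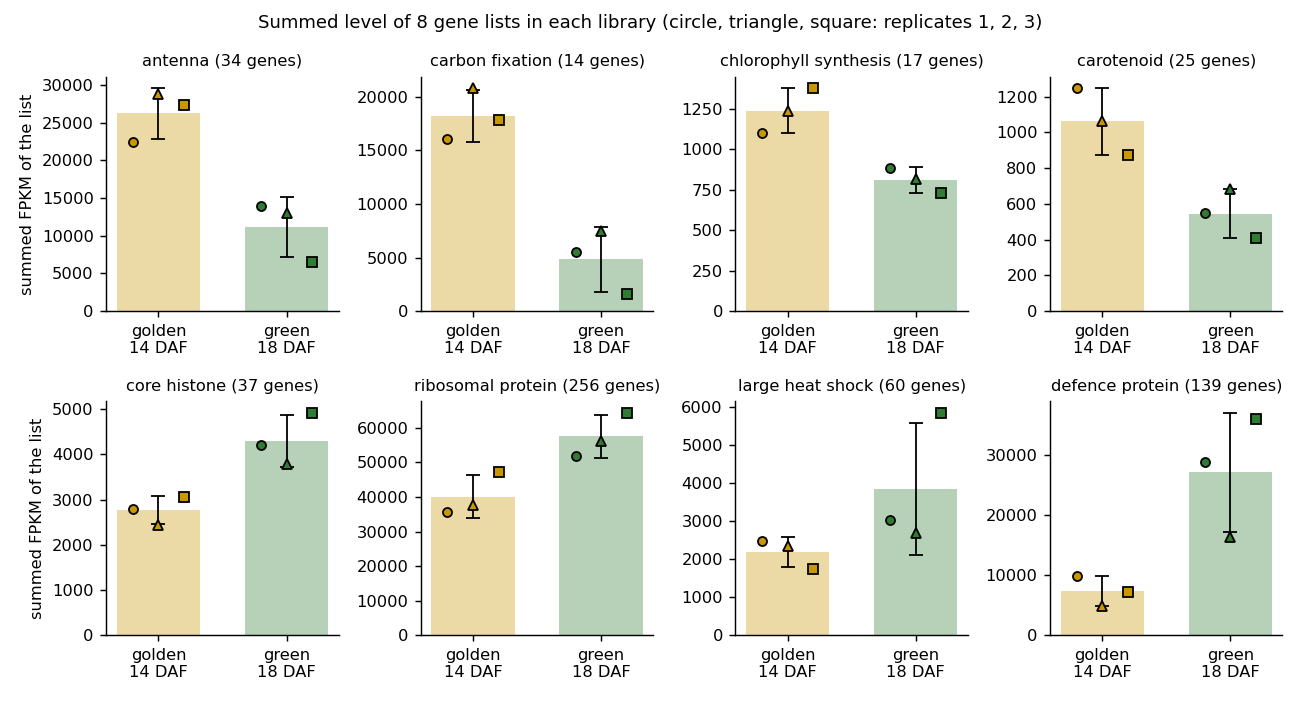
Summed FPKM (y axis) of all members of 8 gene groups in each library, golden 14 DAF on the left and green 18 DAF on the right of each panel, with 1 point per library, bars at the mean and error bars of 1 SD (n = 3). In all 8 panels the golden and green points do not overlap, and green 18 DAF replicate 3 is the lowest point for antenna and carbon fixation and the highest for heat shock.

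The antenna gene with the highest fold change (Phvul.007G062000, chlorophyll a/b-binding family) had 478, 846 and 186 FPKM in golden 14 DAF pods, against 1.89, 31.1 and 4.11 FPKM in green 18 DAF pods. Every golden library exceeded every green one, with a wide spread on both sides (log2 fold change 5.30, SE 1.30, adjusted p = 0.0099). Its log2 was 4.89 without green 18 DAF replicate 3 (adjusted p = 0.048). LHCA5 (Phvul.009G064900), a minor antenna protein of photosystem I, had 40.9, 29.2 and 22.3 FPKM in golden 14 DAF pods, against 6.71, 5.32 and 0.310 FPKM in green 18 DAF pods. It did not overlap between the groups (log2 fold change 2.84, SE 0.73, adjusted p = 0.013), and green replicate 3 was near 0. The most abundant antenna gene, chlorophyll a/b-binding protein 1 (Phvul.002G196400), had 3928, 5038 and 4615 FPKM in golden 14 DAF pods, against 3535, 3029.8 and 1963 FPKM in green 18 DAF pods. These ranges did not overlap either, but the difference was small and was not called (log2 fold change 0.61, SE 0.25, adjusted p = 0.088).

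Among the core subunits, the P subunit of photosystem I (Phvul.009G258500) had 63.5, 103 and 87.6 FPKM in golden 14 DAF pods, against 9.42, 22.7 and 3.99 FPKM in green 18 DAF pods (log2 fold change 2.77, SE 0.63, adjusted p = 0.0068). PsbP-like protein 1 (Phvul.008G015100), an assembly factor of photosystem II in Arabidopsis, had 48.4, 59.6 and 64.7 FPKM in golden 14 DAF pods, against 7.91, 13 and 4.91 FPKM in green 18 DAF pods (log2 fold change 2.68, SE 0.35, adjusted p = 1.6e-04). Its log2 was 2.41 without green 18 DAF replicate 3 (adjusted p = 8.3e-04). For both, each golden library was above every green library. PsbO (Phvul.003G249800, described as oxygen-evolving complex 1 and chosen after its values were seen), which stabilises the manganese cluster that splits water, had 1246, 1460.3 and 1530.3 FPKM in golden 14 DAF pods, against 672, 563 and 375 FPKM in green 18 DAF pods (log2 fold change 1.33, SE 0.31, adjusted p = 0.0072). Of the abundant subunits, photosystem II subunit R (Phvul.005G055200) also stood higher (log2 fold change 1.04, SE 0.33, adjusted p = 0.035), with the call lost without golden 14 DAF replicate 1 (adjusted p = 0.075), without golden 14 DAF replicate 2 (adjusted p = 0.091), without green 18 DAF replicate 2 (adjusted p = 0.068) and without green 18 DAF replicate 3 (adjusted p = 0.14).

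Of 34 tested genes of the electron chain and ATP synthase, 17 were higher and 3 lower (median 1.05), and 9 and 2 without green 18 DAF replicate 3. Among all genes 11.9% were higher and 12.5% lower with all libraries. Ferredoxin-NADP reductase (Phvul.003G263200), which passes electrons to NADP at the end of the chain, had 257, 354 and 303 FPKM in golden 14 DAF pods, against 63.5, 96 and 19.6 FPKM in green 18 DAF pods (log2 fold change 2.30, SE 0.56, adjusted p = 0.0093). Its log2 was 1.89 without green 18 DAF replicate 3 (adjusted p = 0.035). A subunit of the NDH complex of cyclic electron flow (Phvul.001G110100) had 25.9, 40.3 and 25.4 FPKM in golden 14 DAF pods, against 3.19, 8.48 and 1.81 FPKM in green 18 DAF pods (log2 fold change 2.71, SE 0.65, adjusted p = 0.0084). Neither gene overlapped between the groups. Plastocyanin 1 (Phvul.009G020300), the copper protein that feeds photosystem I, had 1392, 1883 and 1775 FPKM in golden 14 DAF pods, against 735, 912 and 341 FPKM in green 18 DAF pods (log2 fold change 1.29, SE 0.34, adjusted p = 0.014), and its call was lost without green 18 DAF replicate 3 (adjusted p = 0.055).

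The Calvin cycle showed the highest median of these groups, 1.80, with 9 of 12 tested genes higher and 0 lower (11.9% of all genes higher). The count was 4 without green 18 DAF replicate 3 and 5 without golden 14 DAF replicate 1 or replicate 2. Phosphoribulokinase (Phvul.002G133100), which regenerates the acceptor of carbon dioxide, had 802, 1072 and 800.3 FPKM in golden 14 DAF pods, against 236, 296 and 71.1 FPKM in green 18 DAF pods (log2 fold change 2.09, SE 0.53, adjusted p = 0.012). Its log2 was 1.69 without green 18 DAF replicate 3 (adjusted p = 0.045). The B subunit of chloroplast glyceraldehyde-3-phosphate dehydrogenase (Phvul.009G006600), the reducing enzyme of the cycle, had 861, 1084 and 1008 FPKM in golden 14 DAF pods, against 266, 346 and 126 FPKM in green 18 DAF pods (log2 fold change 1.94, SE 0.40, adjusted p = 0.0037). Its log2 was 1.64 without green 18 DAF replicate 3 (adjusted p = 0.018). For both enzymes every golden library exceeded every green one, and green replicate 3 was the lowest. A small subunit of rubisco (Phvul.004G073400), the carbon-fixing enzyme itself, had 4965, 6613 and 5704 FPKM in golden 14 DAF pods, against 1668, 2444 and 427 FPKM in green 18 DAF pods (log2 fold change 1.88, SE 0.62, adjusted p = 0.04). The groups did not overlap, but the spread among green libraries was wide and the call was lost without golden 14 DAF replicate 1 (adjusted p = 0.064), without golden 14 DAF replicate 2 (adjusted p = 0.096), without golden 14 DAF replicate 3 (adjusted p = 0.058), without green 18 DAF replicate 1 (adjusted p = 0.079) and without green 18 DAF replicate 3 (adjusted p = 0.13). Other genes of the table carry the same description, and reads of close copies may have been split between them.

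Over the green line's own 4 days no antenna, core or Calvin cycle gene passed edgeR's test, and 1 of the 34 electron chain genes was higher. In green 18 against green 14 DAF pods, where 6.95% of all genes were called, 0 of the 97 antenna and core genes were called by edgeR, DESeq2 or limma, and 1 had an unadjusted p under 0.05. The medians were 0.08 and 0.05, and 0.48 and 0.29 without green 18 DAF replicate 3, where 3 antenna and 6 core genes were higher at an unadjusted p under 0.05 and 0 were called. For the Calvin cycle edgeR and limma called 0 of 12 genes and DESeq2 1 lower, the same number as at an unadjusted p under 0.05 (median 0.32, or 0.70 without green 18 DAF replicate 3). Set against green pods of the same age at 14 DAF, the golden pods had 30 antenna, 40 core and 10 Calvin cycle genes higher (20.4% of all genes were higher), with medians of 1.73, 1.06 and 2.18. The corresponding medians against green 18 DAF pods were 1.57, 1.07 and 1.80. Phosphoribulokinase averaged 891 ± 157 FPKM in golden 14 DAF pods, 164 ± 46.1 FPKM in green 14 DAF pods and 201 ± 116 FPKM in green 18 DAF pods (SD, n = 3 each).

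**Figure D3:**
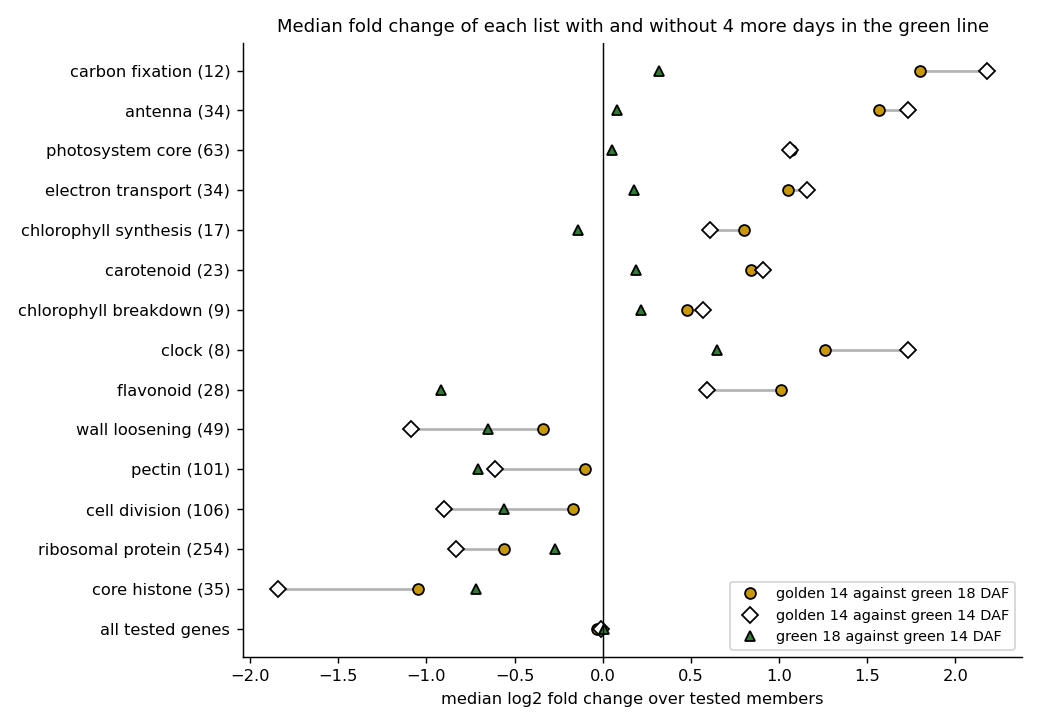
Median log2 fold change (x axis) of the tested members of each gene group in golden 14 against green 18 DAF pods (filled circles), golden 14 against green 14 DAF pods (open diamonds) and green 18 against green 14 DAF pods (triangles). Antenna medians are 1.57, 1.73 and 0.08 in that order, the first and last of which are 1.27 and 0.48 without green 18 DAF replicate 3, while the core histone median is -1.05 against green 18 DAF and -1.84 against green 14 DAF pods.

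Chlorophyll synthesis was higher as well. Of 17 genes, 11 were higher and 0 lower (median 0.80), where 11.9% of all genes were higher, and 10 were higher without green 18 DAF replicate 3. Magnesium chelatase subunit H (Phvul.007G252700), which takes porphyrin onto the chlorophyll branch, had 99.1, 102 and 47.6 FPKM in golden 14 DAF pods, against 7.47, 15.3 and 5.07 FPKM in green 18 DAF pods (log2 fold change 3.10, SE 0.55, adjusted p = 0.0016). Its log2 was 2.82 without green 18 DAF replicate 3 (adjusted p = 0.011). All golden libraries were above all green ones, golden replicate 3 being the lowest of its group. The other subunit H gene (Phvul.001G132200) had 154, 146 and 120.0 FPKM in golden 14 DAF pods, against 62, 58.8 and 30.7 FPKM in green 18 DAF pods (log2 fold change 1.41, SE 0.27, adjusted p = 0.0025).

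At the start of the pathway, glutamyl-tRNA reductase (Phvul.008G185100), which controls entry, had 75.1, 89 and 83.2 FPKM in golden 14 DAF pods, against 25.8, 33.6 and 15.2 FPKM in green 18 DAF pods (log2 fold change 1.67, SE 0.26, adjusted p = 5.8e-04). Glutamate-1-semialdehyde aminomutase (Phvul.009G118500), the next enzyme, had 69.8, 88.9 and 103 FPKM in golden 14 DAF pods, against 43.9, 52.9 and 44.1 FPKM in green 18 DAF pods (log2 fold change 0.83, SE 0.21, adjusted p = 0.011). Hydroxymethylbilane synthase (Phvul.011G177100), which joins the pyrrole rings into a chain, had 20.5, 24.2 and 29.2 FPKM in golden 14 DAF pods, against 12.6, 9.01 and 7.18 FPKM in green 18 DAF pods (log2 fold change 1.29, SE 0.22, adjusted p = 0.0013). None of these overlapped between the groups. Uroporphyrinogen decarboxylase (Phvul.001G248800, log2 fold change 0.89), coproporphyrinogen oxidase (Phvul.008G289900, 0.68), magnesium-protoporphyrin methyltransferase (Phvul.002G281900, 1.10) and geranylgeranyl reductase (Phvul.002G181400, 0.52), which act further along, were higher too, with adjusted p of 0.0017, 0.0083, 0.0023 and 0.013.

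No call was made at the light-driven step. The abundant protochlorophyllide oxidoreductase gene (Phvul.005G083700) had 291, 368 and 467 FPKM in golden 14 DAF pods, against 466, 359 and 382 FPKM in green 18 DAF pods. The groups overlapped and no difference was called (log2 fold change -0.17, SE 0.19, adjusted p = 0.53). Its other copy (Phvul.011G148900) was not called either (log2 fold change 0.41, SE 0.34, adjusted p = 0.39). In the green line 1 of the 17 genes changed over the 4 days, a glutamyl-tRNA reductase gene (Phvul.009G146100) that was higher at 18 DAF (log2 fold change 0.70, SE 0.16, adjusted p = 0.022). That gene had 19.9, 18.1 and 18.1 FPKM in golden 14 DAF pods, against 28.4, 17.3 and 18.8 FPKM in green 18 DAF pods, with overlapping groups (log2 fold change -0.28, SE 0.16, adjusted p = 0.22).

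Of 9 genes for enzymes that take chlorophyll apart, 3 were higher in the golden pods and 0 lower (log2 fold changes between -4.06 and 2.55, median 0.48), and 1 higher without green 18 DAF replicate 3. Over all genes 11.9% were higher. Chlorophyllase 2 (Phvul.007G278100), which removes the phytol tail, had 52.7, 62.2 and 46.5 FPKM in golden 14 DAF pods, against 16.7, 15.7 and 10.1 FPKM in green 18 DAF pods (log2 fold change 1.86, SE 0.30, adjusted p = 7.4e-04). Its log2 was 1.67 without green 18 DAF replicate 3 (adjusted p = 0.0056). Every golden library was above every green one. NON-YELLOWING 1 (Phvul.002G153100), known in Arabidopsis as the stay-green protein that starts the breakdown, had 68.5, 84.8 and 109 FPKM in golden 14 DAF pods, against 26.1, 43.4 and 24.5 FPKM in green 18 DAF pods (log2 fold change 1.42, SE 0.35, adjusted p = 0.01). That call was lost without green 18 DAF replicate 3 (adjusted p = 0.051). A pheophytinase gene (Phvul.011G013400), which cuts phytol from pheophytin, had 15.1, 17.1 and 13.2 FPKM in golden 14 DAF pods, against 2.22, 4.85 and 0.351 FPKM in green 18 DAF pods (log2 fold change 2.55, SE 0.81, adjusted p = 0.033), and its call was lost without golden 14 DAF replicate 1 (adjusted p = 0.062), without golden 14 DAF replicate 2 (adjusted p = 0.075), without green 18 DAF replicate 1 (adjusted p = 0.084) and without green 18 DAF replicate 3 (adjusted p = 0.09). The 3 pheophorbide a oxygenase genes, whose enzyme opens the ring, were not called, at log2 fold changes of 0.34 (Phvul.008G161000, a name shared with another entry of the table), 0.37 (Phvul.008G167850) and 0.68 (Phvul.011G086700). At equal age of 14 DAF, 6 of the 9 genes were higher, and the green line's 4 days gave 0 calls among them by edgeR, limma or DESeq2 and 2 higher at an unadjusted p under 0.05.

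Chloroplast and related proteases had 17 of 43 tested genes higher and 3 lower, and 10 higher and 0 lower without green 18 DAF replicate 3 (10 higher without golden 14 DAF replicate 2). The shares over all genes were 11.9% higher and 12.5% lower. An FtsH protease (Phvul.002G190900), of the family that clears damaged photosystem II protein from thylakoids, had 113, 144 and 64.7 FPKM in golden 14 DAF pods, against 23, 28.1 and 14.8 FPKM in green 18 DAF pods (log2 fold change 2.22, SE 0.37, adjusted p = 0.0011). EGY1 (Phvul.008G225100), a membrane protease that Arabidopsis needs for normal greening, had 63.6, 67.5 and 58.8 FPKM in golden 14 DAF pods, against 23.2, 27.3 and 16.9 FPKM in green 18 DAF pods (log2 fold change 1.43, SE 0.19, adjusted p = 1.9e-04). Neither overlapped between the groups.

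Carotenoid genes were higher in golden pods through most of the pathway. Of 25 genes described as carotenoid enzymes 23 were tested, 12 of which were higher and 1 lower (median 0.84), and 8 higher and 1 lower without green 18 DAF replicate 3. The share higher over all genes was 11.9%. Phytoene synthase, which makes the first colourless carotenoid, was represented by 3 tested genes. The most abundant (Phvul.008G241500) had 82.2, 71 and 59.9 FPKM in golden 14 DAF pods, against 38.4, 30.4 and 21.7 FPKM in green 18 DAF pods (log2 fold change 1.16, SE 0.24, adjusted p = 0.0037), and Phvul.008G195800 had 30.4, 28.2 and 17.1 FPKM in golden 14 DAF pods, against 6.89, 10.5 and 4.94 FPKM in green 18 DAF pods (log2 fold change 1.70, SE 0.36, adjusted p = 0.0048). The third (Phvul.006G024100) was also higher (log2 fold change 1.19, SE 0.27, adjusted p = 0.0063), and none of the 3 overlapped between the groups.

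Phytoene desaturation 1 (Phvul.008G194300), which makes the quinone precursor that desaturation needs, had 44.2, 21 and 17 FPKM in golden 14 DAF pods, against 5.52, 6.22 and 4.52 FPKM in green 18 DAF pods (log2 fold change 2.27, SE 0.33, adjusted p = 4.0e-04). Its log2 was 2.17 without green 18 DAF replicate 3 (adjusted p = 0.0035). Downstream, lycopene cyclases shape the ring ends, and Phvul.008G211500 had 36.1, 38 and 23.9 FPKM in golden 14 DAF pods, against 11.7, 12.4 and 9.35 FPKM in green 18 DAF pods (log2 fold change 1.48, SE 0.24, adjusted p = 8.5e-04). The epoxidase that acts on zeaxanthin in the xanthophyll cycle (Phvul.003G243800) had 152, 166 and 86.6 FPKM in golden 14 DAF pods, against 26.8, 42.6 and 14.7 FPKM in green 18 DAF pods (log2 fold change 2.21, SE 0.42, adjusted p = 0.0026). Its log2 was 1.91 without green 18 DAF replicate 3 (adjusted p = 0.014). All 3 genes were non-overlapping, with golden replicate 3 the lowest golden library in each. Zeta-carotene desaturase (Phvul.007G186000, log2 fold change 0.87, SE 0.24, adjusted p = 0.019) was higher with its call lost without golden 14 DAF replicate 1 (adjusted p = 0.055), without golden 14 DAF replicate 2 (adjusted p = 0.064) and without green 18 DAF replicate 3 (adjusted p = 0.076), and phytoene desaturase 3 (Phvul.001G264200, log2 fold change 0.42, SE 0.16, adjusted p = 0.074) was not called.

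NCED4 (Phvul.002G120600), a carotenoid dioxygenase of the family that includes the committed enzymes of abscisic acid synthesis, had 332, 259 and 278 FPKM in golden 14 DAF pods, against 160.5, 306 and 104 FPKM in green 18 DAF pods. These overlapped (log2 fold change 0.55, SE 0.39, adjusted p = 0.32), whereas the green line at 14 DAF averaged 61.5 ± 16.3 FPKM (SD, n = 3). It was higher in green 18 than in green 14 DAF pods (log2 fold change 1.67, SE 0.40, adjusted p = 0.025) and higher in golden than in green pods at 14 DAF (log2 fold change 2.22, SE 0.41, adjusted p = 8.3e-04). Of the 23 carotenoid genes, 3 were higher and 0 lower over the green line's 4 days (3.95% of all genes higher), and 15 were higher and 1 lower at equal age of 14 DAF.

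Clock genes were higher in golden pods and also moved in the green line between 14 and 18 DAF. All 8 genes matched were of the GIGANTEA, PSEUDO-RESPONSE REGULATOR and FKF1 families, which in Arabidopsis belong to the circadian clock and its control of flowering. Of these 6 were higher and 0 lower (median 1.26), where 11.9% of all genes were higher, and 7 were higher without green 18 DAF replicate 3. PRR5 (Phvul.009G045000) had 71.1, 97.6 and 67.9 FPKM in golden 14 DAF pods, against 11.9, 21.7 and 10.6 FPKM in green 18 DAF pods (log2 fold change 2.36, SE 0.30, adjusted p = 1.5e-04). Its log2 was 2.19 without green 18 DAF replicate 3 (adjusted p = 0.0013). GIGANTEA (Phvul.004G088300) had 12.6, 17 and 8.04 FPKM in golden 14 DAF pods, against 2.24, 4.22 and 2.07 FPKM in green 18 DAF pods (log2 fold change 2.08, SE 0.32, adjusted p = 5.5e-04). FKF1 (Phvul.002G321800), a light-sensing F-box protein, had 19.7, 26.8 and 23.8 FPKM in golden 14 DAF pods, against 4.91, 9.99 and 8.54 FPKM in green 18 DAF pods (log2 fold change 1.52, SE 0.29, adjusted p = 0.0022). No golden library overlapped a green one for these 3 genes. Over the green line's 4 days 5 of the 8 were higher, and at equal age 8 of 8 were higher at 14 DAF (median 1.73) and 2 of 8 at 18 DAF, where 7.99% of all genes were higher (median 0.51). PRR5 averaged 78.9 ± 16.3 FPKM in golden 14 DAF, 4.99 ± 1.65 FPKM in green 14 DAF and 14.7 ± 6.05 FPKM in green 18 DAF pods (SD, n = 3 each). The labels give no hour of sampling, and its part in these values was not tested.

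**Figure D4:**
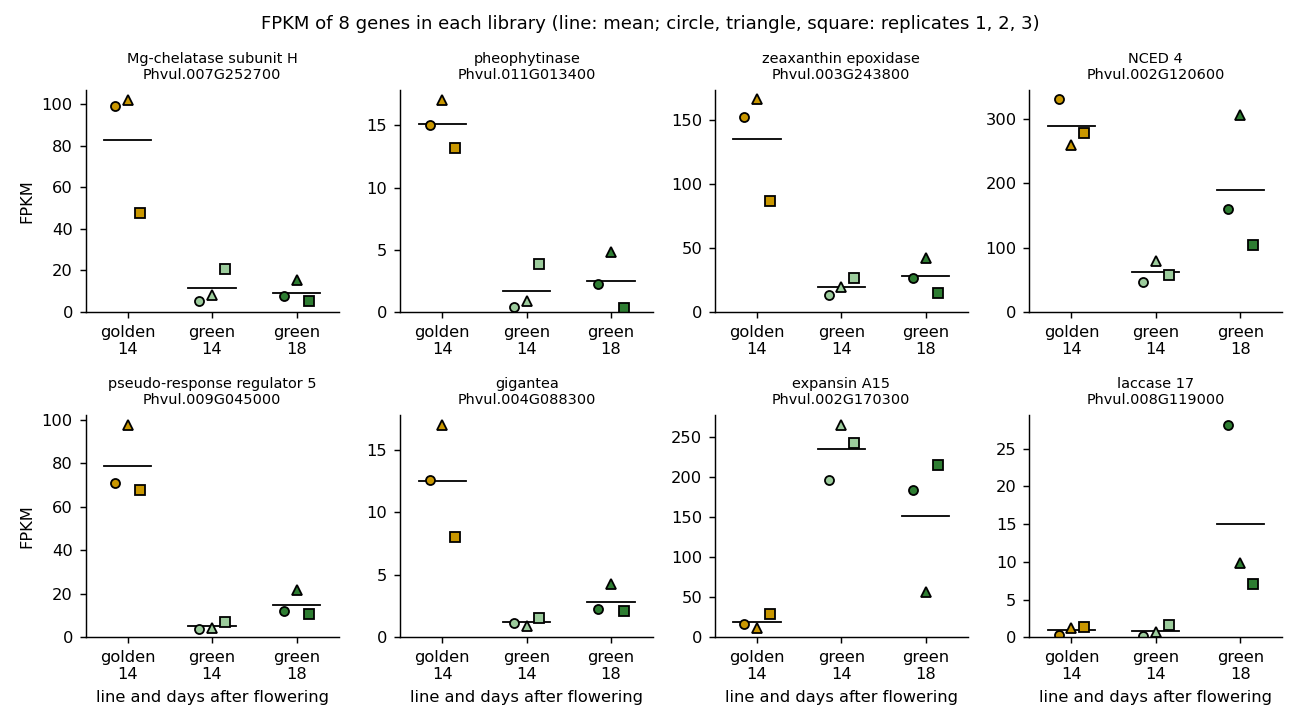
FPKM (y axis) of 8 genes in each library of golden 14 DAF, green 14 DAF and green 18 DAF pods, from left to right, with 1 point per library and a line at the mean. Magnesium chelatase subunit H and PRR5 lie higher in all 3 golden libraries than in any green one, NCED4 overlaps with green 18 DAF, and laccase 17 is near 0 in golden 14 and green 14 DAF pods and between 7.08 and 28.1 FPKM in green 18 DAF pods.

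Few genes of cell multiplication were lower in golden 14 DAF pods when these were set against the older green pods. Of 106 tested cell division genes, 11 were lower and 3 higher against green 18 DAF pods (12.5% of all genes were lower), a share near the background. At equal age of 14 DAF 50 were lower and 2 higher, and over the green line's 4 days 13 were lower and 1 higher (3.01% of all genes lower), with 7 lower without green 18 DAF replicate 3, 27 by limma and 32 by DESeq2. At 14 DAF 49.1% of the list was called, against 41.5% of all genes. The medians were -0.17 against green 18 DAF, -0.90 at equal age of 14 DAF and -0.56 over the green line's 4 days. The count of lower genes against green 18 DAF was 4 without golden 14 DAF replicate 1 or 2 and 3 without green 18 DAF replicate 3. Kinesin 3 (Phvul.011G141500), a microtubule motor, averaged 3.74 ± 0.870 FPKM in golden 14 DAF, 22.6 ± 3.10 FPKM in green 14 DAF and 9.78 ± 3.07 FPKM in green 18 DAF pods (SD, n = 3 each). It was lower against green 18 DAF (log2 fold change -1.47, SE 0.37, adjusted p = 0.012), with the call lost without green 18 DAF replicate 3 (adjusted p = 0.051).

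Core histones, which package newly made DNA, had 15 of 35 tested genes lower and 0 higher (median -1.05), where 12.5% of all genes were lower. They summed to 2799, 2439 and 3066 FPKM in golden 14 DAF pods, against 4195, 3777 and 4920.2 FPKM in green 18 DAF pods. No golden sum reached a green one. A histone gene (Phvul.011G066200) had 74.5, 61.5 and 90.5 FPKM in golden 14 DAF pods, against 324, 246 and 425 FPKM in green 18 DAF pods (log2 fold change -2.21, SE 0.28, adjusted p = 1.4e-04). Its log2 was -1.97 without green 18 DAF replicate 3 (adjusted p = 6.7e-04). The number lower ranged from 5 to 27 when a library was left out, with 6 without golden 14 DAF replicate 1, 5 without golden 14 DAF replicate 2, 27 without golden 14 DAF replicate 3 and 5 without green 18 DAF replicate 3. At equal age of 14 DAF 29 were lower and 1 higher (median -1.84). Over the green line's 4 days 1 was lower and 0 higher (median -0.72), with 14 lower at an unadjusted p under 0.05.

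Genes described as ribosomal proteins had 128 of 254 lower and 28 higher (median -0.56), where 12.5% of all genes were lower and 11.9% higher. Their transcripts summed to 35646, 37591 and 47112 FPKM in golden 14 DAF pods, against 51933, 56212 and 64359 FPKM in green 18 DAF pods. The highest golden sum, in replicate 3, was below the lowest green sum, in replicate 1. Ribosomal protein S27 (Phvul.004G069100) had 974, 806 and 1174 FPKM in golden 14 DAF pods, against 2101, 1652 and 1598 FPKM in green 18 DAF pods (log2 fold change -0.93, SE 0.19, adjusted p = 0.0041). A zinc-binding ribosomal protein gene (Phvul.003G226400, chosen after its values were seen) had 507, 459 and 675 FPKM in golden 14 DAF pods, against 1193, 1020.1 and 1126 FPKM in green 18 DAF pods (log2 fold change -1.09, SE 0.16, adjusted p = 4.4e-04). Among the higher members, Phvul.006G080600 had a log2 fold change of 3.18, and 2.99 without green 18 DAF replicate 3 (adjusted p = 0.035). The number of ribosomal protein genes lower was 58 without golden 14 DAF replicate 1, 60 without golden 14 DAF replicate 2 and 51 without green 18 DAF replicate 3. In the green line 1 was higher and 0 lower over the 4 days, with a median of -0.27, and 2 were higher and 11 lower without green 18 DAF replicate 3. At an unadjusted p under 0.05 64 were lower, limma called 26 lower and DESeq2 27 lower. Against green 14 DAF pods 175 were lower and 22 higher.

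Wall genes moved in both directions. Of 49 tested expansins and xyloglucan enzymes 5 were lower and 2 higher, and of 101 pectin genes 11 were lower and 4 higher, against a background of 12.5% lower. Without green 18 DAF replicate 3 the counts were 3 lower and 2 higher for expansins and xyloglucan enzymes and 8 lower and 1 higher for pectin genes. Without golden 14 DAF replicate 3 the numbers lower were 10 and 19. They were 2 and 5 without golden 14 DAF replicate 2, and 3 and 7 without golden 14 DAF replicate 1. Pectin genes higher were 2 without golden 14 DAF replicate 1 or 2 and 7 without green 18 DAF replicate 2. Expansin A15 (Phvul.002G170300), of the proteins that loosen growing walls, had 16.9, 12 and 29.4 FPKM in golden 14 DAF pods, against 184, 56.7 and 215 FPKM in green 18 DAF pods (log2 fold change -3.04, SE 0.45, adjusted p = 4.1e-04). Its log2 was -2.69 without green 18 DAF replicate 3 (adjusted p = 0.002). Expansin A1 (Phvul.008G037500) ran the other way, with 79.8, 163 and 266 FPKM in golden 14 DAF pods, against 15.2, 55.1 and 19.1 FPKM in green 18 DAF pods (log2 fold change 2.46, SE 0.53, adjusted p = 0.0048). Both were non-overlapping. In the green line expansin A1 was lower at 18 than at 14 DAF (log2 fold change -1.87, SE 0.52, adjusted p = 0.043), and it was not called between the lines at 14 DAF (log2 fold change 0.59, SE 0.50, adjusted p = 0.36). A pectin methylesterase inhibitor family gene (Phvul.007G218500) had 0.508, 0.589 and 0.830 FPKM in golden 14 DAF pods, against 13.4, 13.1 and 20.6 FPKM in green 18 DAF pods (log2 fold change -4.67, SE 0.38, adjusted p = 3.4e-06). A gene of the same family (Phvul.005G011900) was higher, with 4.81, 11.4 and 13.8 FPKM in golden 14 DAF pods, against 1.04, 0.321 and 0.289 FPKM in green 18 DAF pods (log2 fold change 4.10, SE 0.56, adjusted p = 2.4e-04). Among 10 tested pectin acetylesterases, which strip acetyl groups from pectin, 3 were higher and 0 lower, where 11.9% of all genes were higher. Phvul.002G123900 had 18.8, 26 and 14.4 FPKM in golden 14 DAF pods, against 8.48, 8.77 and 4.59 FPKM in green 18 DAF pods (log2 fold change 1.37, SE 0.32, adjusted p = 0.0079). The most abundant (Phvul.003G277500) had 212, 288 and 346 FPKM in golden 14 DAF pods, against 339.7, 399 and 351 FPKM in green 18 DAF pods, with overlapping groups and no call (log2 fold change -0.43, SE 0.18, adjusted p = 0.091). The number higher was 1 without golden 14 DAF replicate 2 or green 18 DAF replicate 3, and 3 were lower without golden 14 DAF replicate 3.

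Secondary wall genes, which mark fibres and vessels, had 12 of 73 lower and 1 higher (median -0.40), 10 and 1 without green 18 DAF replicate 3, and 7 lower without golden 14 DAF replicate 2. Over all genes 12.5% were lower, and 17.8% of this list was called, against 24.4% of all genes. FLA11 (Phvul.001G176400), a fasciclin-like protein of secondary walls in Arabidopsis, had 17.1, 35.9 and 22.6 FPKM in golden 14 DAF pods, against 282, 167 and 155 FPKM in green 18 DAF pods (log2 fold change -3.07, SE 0.75, adjusted p = 0.0096). Its log2 was -3.22 without green 18 DAF replicate 3 (adjusted p = 0.021). Every green library was well above every golden one. FLA12 (Phvul.011G075050) was at 0 in all golden 14 DAF libraries and at 9.85, 5.19 and 8.50 FPKM in the green 18 DAF libraries, at least 500.1-fold lower against a floor of 3 counts over the 3 golden libraries (adjusted p = 2.4e-05). Laccase 17 (Phvul.008G119000), which polymerises lignin in Arabidopsis, had 0.270, 1.29 and 1.30 FPKM in golden 14 DAF pods, against 28.1, 9.88 and 7.08 FPKM in green 18 DAF pods (log2 fold change -4.04, SE 1.12, adjusted p = 0.018). It was higher in green 18 than green 14 DAF pods (log2 fold change 4.23, SE 1.13, adjusted p = 0.039) and was not called at equal age of 14 DAF (log2 fold change 0.19, SE 1.01, adjusted p = 0.90). Its call against green 18 DAF was lost without golden 14 DAF replicate 1 (adjusted p = 0.066), without golden 14 DAF replicate 2 (adjusted p = 0.053) and without green 18 DAF replicate 1 (adjusted p = 0.064).

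Of 44 tested phenylpropanoid and lignin genes 4 were higher and 8 lower (median -0.30, or 0.20 without green 18 DAF replicate 1), and 3 were higher and 6 lower without green 18 DAF replicate 3. The number higher was 7 without green 18 DAF replicate 2. With all libraries 27.3% of the list was called, near the 24.4% over all genes. Cinnamyl alcohol dehydrogenase 9 (Phvul.001G004000), of the last step of monolignol synthesis, had 96.8, 244 and 237 FPKM in golden 14 DAF pods, against 21.4, 44.4 and 50.2 FPKM in green 18 DAF pods (log2 fold change 2.25, SE 0.50, adjusted p = 0.0059). O-methyltransferase 1 (Phvul.009G044400), which methylates lignin and flavonoid precursors, had 63.4, 131 and 186 FPKM in golden 14 DAF pods, against 359.9, 361 and 610.0 FPKM in green 18 DAF pods (log2 fold change -1.88, SE 0.35, adjusted p = 0.0023). These 2 genes were non-overlapping in opposite directions.

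Flavonoid genes, which make the precursors of tannins and anthocyanins, had 9 of 28 tested members higher and 0 lower (median 1.01), where 11.9% of all genes were higher. The number higher was 4 without green 18 DAF replicate 1 or without green 18 DAF replicate 3. Flavanone 3-hydroxylase (Phvul.003G261900) had 199, 158 and 63.4 FPKM in golden 14 DAF pods, against 5.62, 30.2 and 5.17 FPKM in green 18 DAF pods (log2 fold change 3.31, SE 0.85, adjusted p = 0.013). Dihydroflavonol reductase (Phvul.001G012800), which leads to anthocyanins and tannins, had 48.4, 28.8 and 8.29 FPKM in golden 14 DAF pods, against 0.236, 2.20 and 0.164 FPKM in green 18 DAF pods (log2 fold change 4.96, SE 1.33, adjusted p = 0.015). In both the golden libraries were above the green ones, with golden replicate 3 the lowest of its group and green replicate 2 the highest of its own. The first call was lost without green 18 DAF replicate 3 (adjusted p = 0.059) and the second without green 18 DAF replicate 1 (adjusted p = 0.053) and without green 18 DAF replicate 3 (adjusted p = 0.065). At equal age of 14 DAF 3 were higher and 6 lower. That is 32.1% of the list called, below the 41.5% of all genes called at that age. Over the green line's 4 days edgeR called 0 of 28 (median -0.92), 6 lower and 0 higher at an unadjusted p under 0.05, where limma called 4 lower and DESeq2 5 lower.

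Among transcription factors, 16 of 83 tested NAC genes were higher and 6 lower and 9 of 74 WRKY genes were higher and 3 lower. Over all genes 11.9% were higher and 12.5% lower. The share called was 26.5% for NAC and 16.2% for WRKY genes, against 24.4% of all genes. Without green 18 DAF replicate 3 the counts higher and lower were 6 and 4 for NAC and 7 and 0 for WRKY genes. For NAC genes the number higher was 5 without golden 14 DAF replicate 1, 9 without golden 14 DAF replicate 2 and 10 without green 18 DAF replicate 1. A NAC gene (Phvul.005G084500) had 97.8, 53.4 and 12.6 FPKM in golden 14 DAF pods, against 1.46, 5.50 and 2.29 FPKM in green 18 DAF pods (log2 fold change 4.07, SE 0.87, adjusted p = 0.0047), and WRKY40 (Phvul.001G042200), a stress-responsive factor, had 37, 21.1 and 6.39 FPKM in golden 14 DAF pods, against 1.22, 2.13 and 2.02 FPKM in green 18 DAF pods (log2 fold change 3.50, SE 0.68, adjusted p = 0.0027). Its log2 was 3.62 without green 18 DAF replicate 3 (adjusted p = 0.013). In both the golden values spread widely, with replicate 1 the highest and replicate 3 the lowest, yet did not overlap the green values. NAC085 (Phvul.008G159200) was lower, with 0.674, 0.182 and 0.556 FPKM in golden 14 DAF pods, against 3.48, 3.19 and 8.35 FPKM in green 18 DAF pods (log2 fold change -3.48, SE 0.69, adjusted p = 0.003). At equal age of 14 DAF 24 NAC and 27 WRKY genes were higher and 6 and 2 lower (20.4% of all genes higher). Over the green line's 4 days 5 NAC genes were higher and 4 lower, and 7 WRKY genes were higher and 1 lower. Over all genes 3.95% were higher and 3.01% lower in those 4 days.

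Hormone genes gave mixed counts. Called in either direction were 23.4% of auxin signalling and transport genes and 16.2% of SAUR genes, against 24.4% of all genes. Auxin signalling and transport had 13 of 64 higher and 2 lower (10 and 2 without green 18 DAF replicate 3, 8 higher without golden 14 DAF replicate 1), and SAUR genes, which respond early to auxin, 8 of 68 higher and 3 lower. Without green 18 DAF replicate 3 the SAUR counts were 1 and 1, with 2 higher without golden 14 DAF replicate 1 and 3 without golden 14 DAF replicate 2. IAA14 (Phvul.001G156600), a repressor of auxin response, had 231, 112 and 142 FPKM in golden 14 DAF pods, against 50.6, 42.7 and 24.1 FPKM in green 18 DAF pods (log2 fold change 1.98, SE 0.40, adjusted p = 0.0035). It was lower in green 18 than green 14 DAF pods (log2 fold change -2.53, SE 0.41, adjusted p = 0.0057) and was not called between the lines at 14 DAF (log2 fold change -0.55, SE 0.39, adjusted p = 0.27).

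For ethylene, 2 of 24 genes were higher and 4 lower, 0 and 3 without green 18 DAF replicate 3, and 4 were higher without golden 14 DAF replicate 3. Called in either direction were 25% of ethylene, 14.7% of gibberellin, 30.8% of abscisic acid and 16.7% of jasmonate genes, against 24.4% of all genes. An ACC oxidase gene (Phvul.008G213800, described as ethylene-forming enzyme), of the last step of ethylene synthesis, had 1.53, 2.66 and 1.90 FPKM in golden 14 DAF pods, against 20.1, 8.28 and 38.5 FPKM in green 18 DAF pods (log2 fold change -3.53, SE 0.70, adjusted p = 0.0031). Its log2 was -2.86 without green 18 DAF replicate 3 (adjusted p = 0.016). The most abundant ACC oxidase (Phvul.008G214200) had 309, 276 and 54.4 FPKM in golden 14 DAF pods, against 228, 251 and 103 FPKM in green 18 DAF pods, which overlapped (log2 fold change 0.07, SE 0.56, adjusted p = 0.94), and it was higher in green 18 than green 14 DAF pods (log2 fold change 3.37, SE 0.61, adjusted p = 0.0085). Gibberellin 2-oxidase 8 (Phvul.007G052000), which inactivates gibberellins, had 7.18, 3.42 and 2.47 FPKM in golden 14 DAF pods, against 66.3, 23.2 and 44.4 FPKM in green 18 DAF pods (log2 fold change -3.44, SE 0.57, adjusted p = 9.2e-04). The gibberellin list in all had 1 of 34 higher and 4 lower, the same counts without green 18 DAF replicate 3 and 2 lower without golden 14 DAF replicate 2. Of 26 abscisic acid genes 5 were higher and 3 lower, and 2 and 1 without green 18 DAF replicate 3. The number higher was 2 without golden 14 DAF replicate 1 and 3 without golden 14 DAF replicate 2, and the number lower 1 without golden 14 DAF replicate 2 or green 18 DAF replicate 1. A PYR1-like receptor (Phvul.006G175700) had 7.15, 8.53 and 9.53 FPKM in golden 14 DAF pods, against 1.27, 0.570 and 0.102 FPKM in green 18 DAF pods (log2 fold change 3.61, SE 0.69, adjusted p = 0.0025). Its log2 was 3.10 without green 18 DAF replicate 3 (adjusted p = 0.0058). Of 54 jasmonate genes 7 were higher and 2 lower, and 1 and 2 without green 18 DAF replicate 3. The number of jasmonate genes higher was 3 without golden 14 DAF replicate 2 or 3 and 4 without green 18 DAF replicate 1.

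Heat shock and defence genes were called lower in the golden pods more often than higher. Of 57 tested large heat shock proteins 20 were lower and 3 higher, and 10 and 2 without green 18 DAF replicate 3. Their transcripts summed to 2472, 2354 and 1747 FPKM in golden 14 DAF pods, against 3022, 2686 and 5853 FPKM in green 18 DAF pods. The golden and green sums did not overlap, and green replicate 3 was the highest. The chaperone gene HSP90.1 (Phvul.004G107700), induced by heat, had 18.4, 15.1 and 13.6 FPKM in golden 14 DAF pods, against 99.1, 42.3 and 642 FPKM in green 18 DAF pods (log2 fold change -4.15, SE 0.74, adjusted p = 0.0016). Its log2 was -2.24 without green 18 DAF replicate 3 (adjusted p = 0.0013). It also averaged 585 ± 245 FPKM in green 14 DAF pods (SD, n = 3). The cognate HSP70-1 (Phvul.007G157200), present without heat, had 1159.7, 958 and 538 FPKM in golden 14 DAF pods, against 1103, 847 and 1164 FPKM in green 18 DAF pods and overlapped (log2 fold change -0.31, SE 0.24, adjusted p = 0.37). Small heat shock proteins had 8 of 48 lower and 1 higher, and 3 and 0 without green 18 DAF replicate 3. With all libraries 40.35% of the large and 18.75% of the small heat shock genes were called, against 24.4% of all genes. Phvul.001G206400, of the HSP20 family, had 321, 310.0 and 386 FPKM in golden 14 DAF pods, against 461, 599 and 740.5 FPKM in green 18 DAF pods (log2 fold change -0.89, SE 0.18, adjusted p = 0.0035). Over the green line's 4 days 3 large heat shock genes were higher and 2 lower (median -0.44) and 0 small ones higher and 1 lower (median -1.01). Without green 18 DAF replicate 3 these counts were 2 and 16 for large and 0 and 9 for small ones. Growth temperature beyond the climate chamber is not given in the labels, and its part was not tested.

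Defence proteins had 23 of 117 lower and 8 higher (median -0.66), and 15 and 6 without green 18 DAF replicate 3. With all libraries 26.5% were called, near the 24.4% over all genes. They summed to 9953, 4974 and 7154 FPKM in golden 14 DAF pods, against 28896, 16417 and 36125 FPKM in green 18 DAF pods. Green 14 DAF pods, at 9209, 15985 and 11940 FPKM, overlapped golden 14 DAF and lay below green 18 DAF pods. Golden 18 DAF pods, at 25190, 14900 and 18835 FPKM, overlapped green 18 DAF pods. The most abundant member, MLP-like protein 423 (Phvul.003G109100), of a family related to pathogenesis proteins, had 1506, 825 and 1037 FPKM in golden 14 DAF pods, against 7290.5, 3695 and 10218 FPKM in green 18 DAF pods. No golden library reached a green one, but the call (log2 fold change -2.74, SE 0.80, adjusted p = 0.023) was lost without golden 14 DAF replicate 1 (adjusted p = 0.051), without golden 14 DAF replicate 2 (adjusted p = 0.089), without golden 14 DAF replicate 3 (adjusted p = 0.057) and without green 18 DAF replicate 3 (adjusted p = 0.081). Osmotin 34 (Phvul.002G286500), an antifungal protein, ran the other way. It had 18.2, 16 and 29.7 FPKM in the golden 14 DAF libraries and was at 0 in all green 18 DAF libraries, at least 853-fold higher (adjusted p = 5.8e-05). Over the green line's 4 days 7 defence genes were higher and 9 lower (median 0.27), where 3.95% of all genes were higher and 3.01% lower.

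Transport and storage genes differed by member. Aquaporins, the water channels, had 7 of 28 lower and 1 higher (12.5% of all genes lower), and 7 and 0 without green 18 DAF replicate 3. The most abundant, gamma tonoplast intrinsic protein (Phvul.001G181100) of the vacuole membrane, had 1432, 1330.2 and 1371 FPKM in golden 14 DAF pods, against 3034, 3000.2 and 2980.0 FPKM in green 18 DAF pods (log2 fold change -1.20, SE 0.26, adjusted p = 0.0054). The aquaporin count was 1 lower without golden 14 DAF replicate 2 and 4 lower without golden 14 DAF replicate 3, green 18 DAF replicate 1 or green 18 DAF replicate 2. A sugar efflux carrier of the MtN3 (SWEET) family (Phvul.002G300900) had 9.88, 34.1 and 26.2 FPKM in golden 14 DAF pods, against 0.411, 0.390 and 0 FPKM in green 18 DAF pods (log2 fold change 6.36, SE 1.09, adjusted p = 0.0018), and sucrose synthase 3 (Phvul.001G209600), which splits sucrose for growth and storage, had 15.9, 10.8 and 7.99 FPKM in golden 14 DAF pods, against 47.9, 35.2 and 39.6 FPKM in green 18 DAF pods (log2 fold change -1.90, SE 0.24, adjusted p = 1.2e-04). Of 54 starch and sucrose genes 9 were higher and 2 lower, a share near the background of 24.4%, and 5 and 1 without green 18 DAF replicate 3. SPX2 (Phvul.003G164900), a phosphate sensor, had 13.1, 16.9 and 11.4 FPKM in golden 14 DAF pods, against 0.103, 0 and 0 FPKM in green 18 DAF pods, with 1 green library above 0 (adjusted p = 1.7e-04). Purple acid phosphatase 17 (Phvul.002G332100), which frees phosphate, had 5.62, 4.51 and 2.09 FPKM in golden 14 DAF pods, against 222, 59.7 and 8.18 FPKM in green 18 DAF pods (log2 fold change -4.64, SE 1.06, adjusted p = 0.0067; log2 fold change -3.09 without green 18 DAF replicate 1, adjusted p = 0.03). The phosphate list in all had 5 of 53 higher and 9 lower, 5 and 8 without green 18 DAF replicate 3 and 5 lower without golden 14 DAF replicate 2. Its share called with all libraries was 26.4%, near the 24.4% over all genes.

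The widest differences over all genes were in genes at or near 0 on one side. Of the called genes, 146 were at 0 in every green 18 DAF library and 162 at 0 in every golden 14 DAF library. A P450 gene of family 72 (Phvul.005G063900) had 18.6, 17.6 and 15.6 FPKM in golden 14 DAF pods and 0 in all green 18 DAF libraries, at least 1678-fold higher. A glycosyl hydrolase (Phvul.008G135400) had 17.3, 19.2 and 20.6 FPKM in golden 14 DAF pods, against 0 in all green 18 DAF libraries, at least 1040.3-fold higher. In the opposite direction, a cytochrome P450 described as family 82 subfamily C (Phvul.004G021300) was at 0 in golden 14 DAF pods, against 12.6, 17.2 and 6.70 FPKM in green 18 DAF pods, at least 2042-fold lower. A HAD-family hydrolase (Phvul.005G164600) was at 0 in golden 14 DAF pods, against 42.3, 31.5 and 28.1 FPKM in green 18 DAF pods, at least 1527-fold lower. The adjusted p of these 4 genes were 2.1e-05, 2.1e-07, 2.0e-05 and 6.7e-07. Whether such genes are missing from one line or their reads failed to map was not tested.

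The same 4-day offset can be read once more with no shared library, in golden 10 DAF against green 14 DAF pods. In that comparison 5772 genes (25.3%) were called, 2883 higher (12.6%) and 2889 lower (12.7%), or 3301 without golden 10 DAF replicate 3. Called in both offsets were 3386 genes, of which 3370 had the same sign and 16 the opposite sign. The 3370 are 60.64% of the genes called in golden 14 against green 18 DAF and 58.39% of those called in golden 10 against green 14 DAF. Across genes the log2 fold changes of the offsets had a Pearson correlation of 0.73 and a Spearman correlation of 0.66 over 22805 genes, which are not independent and share the same lines and annotation. Antenna genes had 28 of 34 higher and 0 lower in the earlier offset, where 12.6% of all genes were higher (median 1.67), photosystem core genes 38 of 63 and 0 (median 1.01), and Calvin cycle genes 9 of 12 and 0 (median 1.81). Core histones had 20 of 35 lower (median -1.27) and ribosomal proteins 167 of 254 lower and 21 higher (median -0.79). Flavonoid genes had 1 of 28 higher and 1 lower in the earlier offset (median 0.01), against 9 higher and 0 lower in the later one. The difference between the offsets was called for 3 of 22805 genes (0.0132%), none of them a flavonoid gene, and 2013 genes had an unadjusted p under 0.05. DESeq2 called 246 genes and limma 13.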

How the data were processed

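Paired-end Illumina sequencing of poly(A) RNA was used, per the labels' protocols. The deposited table holds an estimated count and an FPKM value from the authors for each gene in each library. All the counts are whole, so rounding changed nothing, and FPKM gave the levels printed here. Neither aligner, counter nor build is given in the sources used here. Strand was not stated, so antisense and overlapping genes cannot be told apart, and close copies may share reads. Of 25124 genes, 635 without a name (2.20% to 3.97% of counts) are not named here. The table gives coordinates for 7933 genes, none of which is among those the text names. Gene descriptions are the table's own and were used as given.

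Counts of all 18 libraries were fitted in edgeR 4.0.16 (R 4.3.3) with 6 group means, TMM scaling and its default expression filter, which kept 22805 genes and dropped 2319, leaving 12 residual degrees of freedom and a common dispersion of 0.155. Contrasts were tested two-sided with the quasi-likelihood test and p-values adjusted by Benjamini-Hochberg over all tested genes, called under 0.05. With 3 libraries against 3 an exact permutation test of 1 gene cannot go below 0.10, so none was run. The p-values rest on the spread between replicates within the 6 groups of all 18 libraries. Each pod colour is represented by a single line, so they do not extend to golden and green lines in general. Every pair of replicates differed beyond counting noise. Gene lists (36, by patterns in the descriptions) hold 2066 genes, 1830 of them tested. For each list the text names up to 3 called members with the largest fold change and at least 5 FPKM in the higher group, the 2 most abundant members, any member of the pigment, clock and pectin acetylesterase lists, and over all genes the largest non-overlapping changes at 10 FPKM or more. The members and lists were chosen with earlier results of these data known. The script was tested on simulated data. Alternatives were other scalings, filters, DESeq2 1.42.0, limma 3.58.1 on log2(FPKM + 1) or log2(FPKM + 0.1), fits of the contrast's libraries alone, a replicate block and leaving out each library. A group at 0 in all libraries was bounded by a floor of 3 counts over its 3 libraries, for counting error only.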

Additional observations from a re-analysis of the deposited data

Results flagged for a closer look

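For 3 genes the offset between the lines differed between golden 14 against green 18 DAF and golden 10 against green 14 DAF pods, tested as the difference of the log2 fold changes with edgeR's quasi-likelihood test. They were chosen after their values were seen. A receptor-like protein gene (Phvul.008G276100, described as receptor like protein 24) had 0.728, 0.582 and 0.187 FPKM in golden 14 DAF and 1.77, 2.01 and 1.32 FPKM in green 18 DAF pods, and 0, 0 and 0 FPKM in golden 10 DAF and 2.13, 2.92 and 3.56 FPKM in green 14 DAF pods. All 3 golden 10 DAF libraries were at 0, so the fitted difference of 9.09 (SE 1.03, adjusted p = 0.01) depends on how a 0 is handled. Phvul.001G059600, which carries no description, had 15.1, 22.9 and 21.5 FPKM in golden 14 DAF and 4.76, 14.9 and 7.07 FPKM in green 18 DAF pods, and 0, 0.427 and 0.203 FPKM in golden 10 DAF and 42.7, 63.2 and 49 FPKM in green 14 DAF pods (difference 8.87 on the log2 scale, SE 0.90, adjusted p = 0.0015). The groups overlapped in neither offset, though they came as close as 15.1 and 14.9 FPKM in the later one. Golden pods had the lower values at 10 against 14 DAF. Their higher values at 14 against 18 DAF were not called (log2 fold change 1.10), so a reversal of sign is not established. A calcium-binding EF-hand gene (Phvul.001G067400) had 96.4, 90.1 and 59.5 FPKM in golden 14 DAF and 31.5, 42.7 and 46 FPKM in green 18 DAF pods, and 31.1, 47.3 and 27.5 FPKM in golden 10 DAF and 79.4, 82.2 and 98.2 FPKM in green 14 DAF pods (difference 2.26 on the log2 scale, SE 0.32, adjusted p = 0.027). It was called higher in golden pods in the later offset (log2 fold change 0.96, SE 0.22, adjusted p = 0.0072) and lower in the earlier one (log2 fold change -1.29, SE 0.22, adjusted p = 0.0012). Over all genes 0.0132% were called for this difference.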

How the results depend on the processing

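For golden 14 against green 18 DAF pods, 5557 genes were called. The number was 2550 when the fit held only the 6 libraries of the contrast, and 7115 with DESeq2. The smaller fit has fewer residual degrees of freedom and its own estimate of the spread, and why its count was lower was not tested. Leaving out 1 library gave 3048 to 5741. Of the 5557 genes, 5543 were also called with the same sign by DESeq2, 4915 by limma on log2(FPKM + 1), 2392 with only the contrast's libraries and 2958 without green 18 DAF replicate 3. For green 18 against green 14 DAF pods the count was 1586, with 92 from only the contrast's libraries, 3446 by DESeq2 and 474 to 1522 with 1 library left out. For golden 10 against green 14 DAF pods it was 5772, with 6958 from only the contrast's libraries, a rise, and 3301 to 4416 with 1 library left out. The difference between the offsets was called for 3 genes, for 1 with only the contrasts' libraries, for 13 and 10 by limma with pseudocounts of 1 and 0.1, for 246 by DESeq2 and for 1 to 26 with 1 library left out. Deviations from the group mean of same-numbered golden 14 and green 18 DAF libraries correlated at 0.0937, 0.102 and 0.117. Differently numbered libraries were not compared, so these values do not decide whether the replicate numbers pair the samples. With the replicate number as a block, 4837 genes were called in golden 14 against green 18 DAF, 1035 in green 18 against green 14 DAF, 5146 in golden 10 against green 14 DAF and 1 for the difference. The phenylpropanoid and lignin median was -0.30 and ranged between -0.50 and 0.20 with 1 library left out, turning positive without green 18 DAF replicate 1. The cause was not tested. Ribosomal proteins called lower numbered 27 with only the contrast's libraries and 142 with DESeq2. With only the contrast's libraries 11 antenna genes, 24 core genes and 3 Calvin cycle genes were higher, and 6 core histones and 4 large heat shock genes lower. Over the genes of the naming rule and the few added outside it, called or not, 2783 values under the alternatives stayed on their side of the threshold with the same sign, 253 lost a call, 62 gained one and 26 uncalled values changed sign.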

Other observations

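Among 40 tested senescence and autophagy genes 6 were higher and 3 lower in golden 14 DAF pods (median log2 fold change 0.01, against -0.03 over all genes), and 4 and 3 without green 18 DAF replicate 3. A senescence-related gene 1 homolog (Phvul.006G168190), of the oxidoreductase kind, had 8.95, 14.5 and 8.85 FPKM in golden 14 DAF pods, against 0.493, 0.598 and 0 FPKM in green 18 DAF pods (log2 fold change 4.81, SE 1.25, adjusted p = 0.013, edgeR's quasi-likelihood test). Another gene of that description (Phvul.005G077501) had 3.07, 3.0 and 2.44 FPKM in golden 14 DAF pods, against 36, 4.99 and 52.5 FPKM in green 18 DAF pods (log2 fold change -3.55, SE 0.70, adjusted p = 0.003). The golden and green libraries did not overlap for either gene. Of 24 tested seed genes 3 were higher and 2 lower (median 0.67), and 0 were higher and 1 lower without green 18 DAF replicate 3. The number higher was 0 without golden 14 DAF replicate 1 and 1 without golden 14 DAF replicate 2. A late embryogenesis abundant gene (Phvul.007G215400), of a family that protects drying cells, had 112, 113 and 159 FPKM in golden 14 DAF pods, against 238, 207 and 337 FPKM in green 18 DAF pods (log2 fold change -1.10, SE 0.19, adjusted p = 0.0015). Every golden library was below every green one. Other seed genes were higher, Phvul.003G237400 (log2 fold change 2.22) and Phvul.007G259400 (1.83) among them. Both calls were lost without golden 14 DAF replicate 1 and without green 18 DAF replicate 3.

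Of 16 tested pod development genes 2 were higher and 1 lower (median 0.32), and 0 were higher and 0 lower without green 18 DAF replicate 3. AGAMOUS-like 8 (Phvul.009G203400), named FRUITFULL in Arabidopsis and needed there for fruit valve growth, had 222, 175 and 127 FPKM in golden 14 DAF pods, against 65.2, 68.7 and 40.8 FPKM in green 18 DAF pods (log2 fold change 1.52, SE 0.40, adjusted p = 0.014). The groups did not overlap, and the call was lost without golden 14 DAF replicate 1 (adjusted p = 0.054) and without green 18 DAF replicate 3 (adjusted p = 0.068). Of 32 tested sugar transport genes 3 were higher and 4 lower (median 0.11), with 1 higher and 5 lower without green 18 DAF replicate 3. The shares called in these lists are near the 24.4% called over all genes.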
